A study of Rattus norvegicus with 54 samples.

Results

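The leukocyte genes described here are 10 genes expressed mainly by white blood cells: Ptprc, Laptm5, Fcer1g, Tyrobp, Cd53, Cd37, Coro1a, Cd14, Csf1r and Cd300c2. They were chosen by symbol, with earlier results of these data known, and every probe set that the platform annotation assigns to 1 of these symbols was taken. Counts of members set beside the share of all probe sets below are therefore descriptions and no test of the set. This gave 11 probe sets, with 2 for Ptprc (1370603_a_at and 1390798_at) and 1 for each of the other genes, out of 10411 genes on the array. The study hybridised RNA from epididymal adipose tissue, liver and gastrocnemius muscle of male Zucker rats to 54 Affymetrix Rat Expression 230A arrays. Lean rats (fa/+) were compared with obese rats (fa/fa), which were untreated or received pioglitazone, rosiglitazone, troglitazone or AG035029, each a ligand of the nuclear receptor PPARγ. The lean and the untreated obese rats are labelled as given normal chow. All ligand groups share the fa/fa genotype, and no lean group received a ligand. Each of the 18 groups (3 tissues, 6 conditions) has 3 arrays, and each array carries pooled RNA from 2 rats, so that single-animal spread was not seen. The labels give neither dose, duration nor age, and whether the tissues of 1 group came from the same rats is not stated.

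The fa allele disrupts the leptin receptor, and fa/fa rats become obese and insulin resistant. In obesity, macrophages and other leukocytes accumulate in adipose tissue, and their transcripts are measured there beside those of adipocytes. Ptprc encodes CD45, the receptor-type tyrosine phosphatase found on nearly all nucleated blood cells. Fcer1g and Tyrobp (DAP12) encode small adapters that carry an immunoreceptor tyrosine-based activation motif (ITAM) and signal for Fc and other myeloid receptors. Cd300c2 encodes a surface receptor of the CD300 family on myeloid cells. Csf1r encodes the receptor of colony-stimulating factor 1 and interleukin 34, on which macrophages depend. Cd14 encodes a co-receptor that presents lipopolysaccharide to TLR4. Cd53 and Cd37 encode leukocyte tetraspanins, Laptm5 a lysosomal membrane protein of blood cells, and Coro1a a coronin that binds actin in leukocytes.

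PU.1, the transcription factor that Spi1 encodes, drives many of the genes of myeloid and B cells and binds sequences with the core GAGGAAG. RefSeq promoter windows of GRCr8 (250 bases before and 50 after the annotated start site, the table's own) were available for 8 of the 10 genes. Both strands were searched for GAGGAAG. The core was present in 5 of these 8 genes, Laptm5, Cd53, Cd37, Cd14 and Csf1r, and in 12.4% of 33469 promoters of the same length. The AP-1 motif TGANTCA, searched in the same way, was found in 0 of the 8 and is present in 7.33% of all promoters. The stretches from 150 to 31 bases before the start site are shown for Laptm5, Cd53 and Cd37, which fell with the ligands (below) and carry 1 match there on the reverse strand, and for Cd14, which carries 2 matches on the forward strand and was not called with the ligands. Capitals mark the match, read 5′ to 3′ on the gene's strand.
Laptm5, chr5:148371730-148371849, plus strand: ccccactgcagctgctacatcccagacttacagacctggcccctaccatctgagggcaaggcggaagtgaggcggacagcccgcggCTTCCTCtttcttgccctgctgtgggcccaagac
Cd53, chr2:197087927-197088046, minus strand: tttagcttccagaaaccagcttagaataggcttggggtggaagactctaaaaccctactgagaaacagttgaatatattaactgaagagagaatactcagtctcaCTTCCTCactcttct
Cd37, chr1:104860815-104860934, minus strand: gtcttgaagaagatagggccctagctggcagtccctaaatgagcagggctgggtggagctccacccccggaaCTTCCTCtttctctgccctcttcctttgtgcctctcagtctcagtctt
Cd14, chr18:28611189-28611308, minus strand: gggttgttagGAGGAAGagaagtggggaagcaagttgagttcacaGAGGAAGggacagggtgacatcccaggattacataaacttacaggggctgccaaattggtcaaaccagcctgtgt
The matches begin 64, 45 and 78 bases before the start site in Laptm5, Cd53 and Cd37, and 140 and 105 bases before it in Cd14. The single match of Csf1r begins 230 bases before its start site and lies outside the stretch shown. The stretches of Cd37 and Cd14 lie inside the gene extents given below, so they are upstream only of the start site used for the window. A match is a description of the letters in the window and was not tested as a binding site.

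In the GRCr8 assembly, Tyrobp lies on chromosome 1 at 94800372 to 94804307, Cd37 at 104855622 to 104861111 and Coro1a at 190726129 to 190731133 of the same chromosome. Fcer1g (86181908 to 86186766) and Ptprc (52147717 to 52259810) lie on chromosome 13, and Cd14 (28609558 to 28611409) and Csf1r (56834152 to 56860804) on chromosome 18. Laptm5 lies on chromosome 5 at 148371880 to 148393927, Cd53 on chromosome 2 at 197040369 to 197087925 and Cd300c2 on chromosome 10 at 100752301 to 100757549. The files give no position of the probes within these genes, so which exon or UTR each probe set reads is not known here.

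The arrays were alike in scale. The trimmed mean signal was between 500.1 and 500.2 on every array, and the array medians ran from 190.8 (the lowest muscle array) to 248.4 (the highest liver array). Marker genes followed the tissue labels. In the lean groups the summed signal of 8 adipocyte genes was 45110 to 55510 in adipose tissue and at most 4642 elsewhere, and that of 9 hepatocyte genes was 346600 to 355300 in liver and at most 3203 in adipose tissue. In muscle the adipocyte sum was 2749 to 7564 in untreated obese rats and 5690 to 9487 with AG035029. It was 7152 to 8368 with rosiglitazone, 8272 to 13340 with pioglitazone and 11310 to 20560 with troglitazone. The part of these transcripts in the muscle results below was not tested. The ratio of the 3′ to the 5′ probe set of Gapdh, a sign of RNA integrity, was 1.246 to 1.349 in untreated obese adipose tissue, 1.083 to 1.205 with rosiglitazone and 1.107 to 1.183 with AG035029, which did not overlap with the obese group. With pioglitazone it was 1.198 to 1.263, with troglitazone 1.201 to 1.39 and in lean adipose tissue 0.9834 to 1.552, the widest range of the 6 groups. The same ratio of actin was 1.105 to 1.299 in obese and 1.036 to 1.305 in lean adipose tissue, and reached 1.908 with troglitazone. The ratios were wider in liver. In untreated obese liver Gapdh ran from 0.9227 to 1.7 and actin from 1.431 to 3.524, against 0.9605 to 1.168 and 1.77 to 2.07 in lean liver. Actin reached 3.267 in liver with rosiglitazone and 2.113 in lean muscle. The part of these ratios in the results below was not tested.

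The first comparison asked how the leukocyte genes differ between untreated obese and lean adipose tissue. Of the 11 probe sets, 7 were higher in obese adipose tissue and none was lower, at a Benjamini-Hochberg adjusted p under 0.05 in limma, which is the meaning of called, rose and fell below. Over all 9519 probe sets tested in adipose tissue, 3.16% were called higher. The median difference of the 11 probe sets was 0.77 on the log2(signal + 20) scale, against -0.02 for all probe sets. All 11 had passed the filter on low signals in adipose tissue. In bulk tissue, fewer cells of a type and less RNA per cell cannot be told apart.

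**Figure D1:**
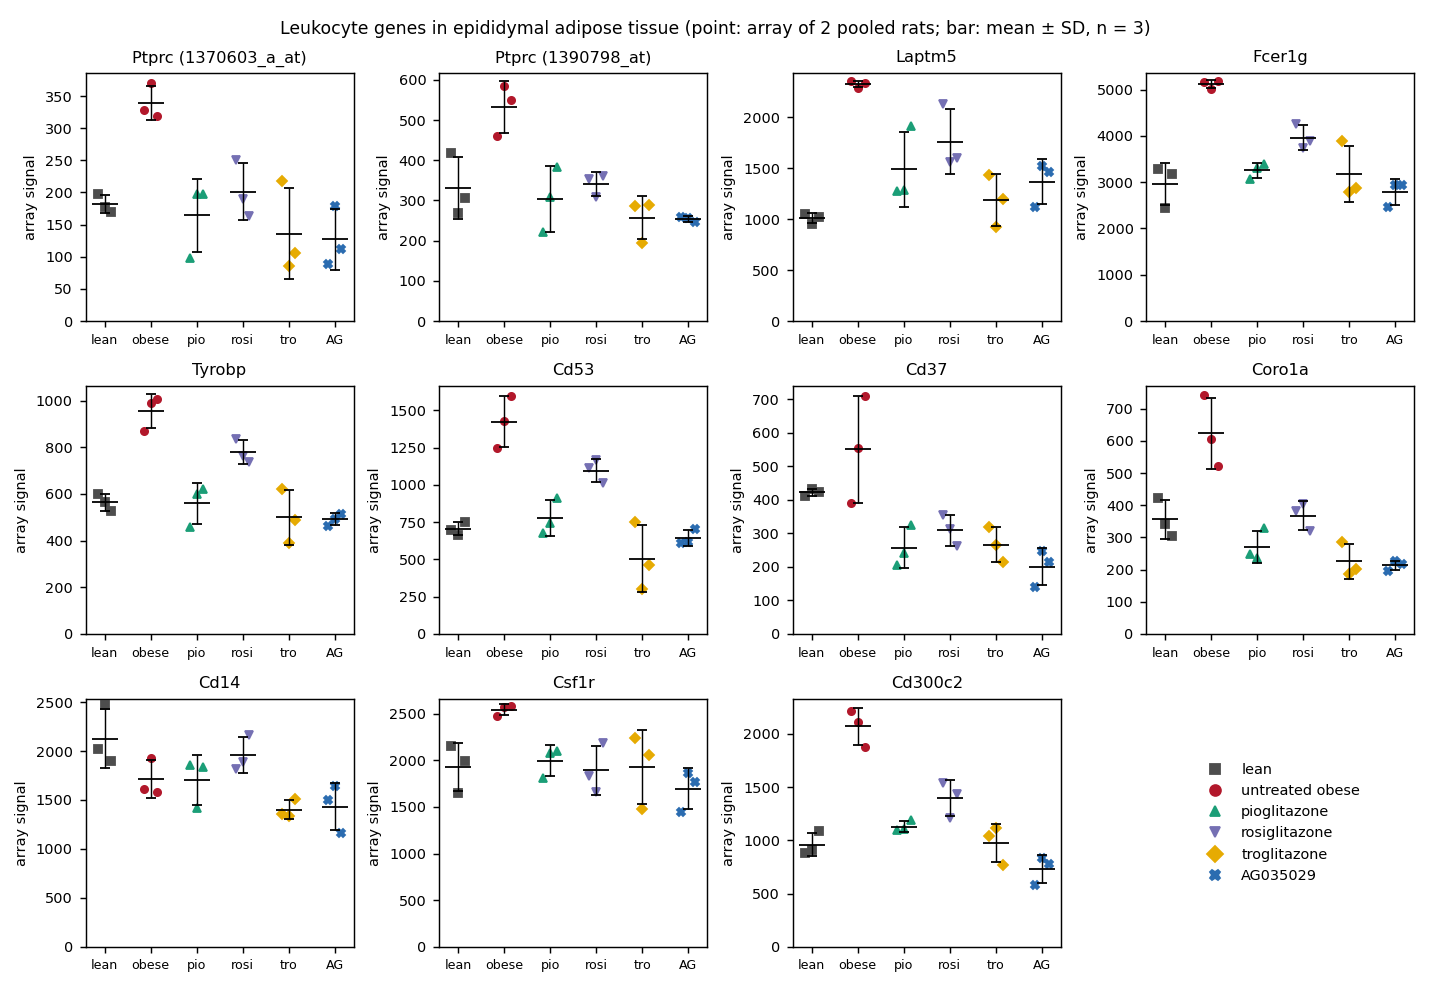
Array signal of each leukocyte probe set in adipose tissue (vertical axis, linear, from 0) in the 6 groups (horizontal axis: pio, pioglitazone; rosi, rosiglitazone; tro, troglitazone; AG, AG035029). Points are arrays and bars the mean ± SD of 3 arrays; for Fcer1g the 3 untreated obese arrays lie at 5012 to 5185, above the arrays of every other group, while for Cd14 they lie at 1582 to 1934, overlapping the lean arrays (1898 to 2467) and above the troglitazone arrays (1333 to 1515).

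Among the myeloid receptors and adapters, Cd300c2 gave signals of 883.3, 908 and 1083 on the 3 lean arrays and 2218, 2114 and 1876 on the 3 obese arrays. The groups did not overlap, and the difference was 1.10 ± 0.15 (SE, n = 3 per group) on the log2(signal + 20) scale, 2.139-fold, with an adjusted p of 0.000261 in limma. Fcer1g, the common γ chain of Fc receptors, gave 3279, 2450 and 3184 in lean and 5165, 5012 and 5185 in obese tissue, a difference of 0.79 ± 0.13 (adjusted p = 0.00137 in limma). Tyrobp gave 600.4, 564.8 and 526.5 in lean and 870.4, 991.3 and 1006 in obese tissue, a difference of 0.74 ± 0.15 (adjusted p = 0.00547 in limma). For both adapters every obese array was above every lean array. Csf1r followed the same order, with 2154, 1647 and 1990 in lean and 2473, 2572 and 2577 in obese tissue, but its difference of 0.40 ± 0.15 was not called (adjusted p = 0.13 in limma).

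Cd14 was the single member with a negative difference. It gave 2016, 2467 and 1898 on the lean arrays and 1617, 1934 and 1582 on the obese arrays, which overlap, and its difference of -0.31 ± 0.15 was not called (adjusted p = 0.241 in limma).

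Laptm5, the lysosomal membrane protein, gave the largest difference of the 11 probe sets. Its signals were 1055, 956.9 and 1027 in lean and 2359, 2294 and 2337 in obese tissue, a difference of 1.19 ± 0.18 or 2.276-fold (adjusted p = 0.000486 in limma). Coro1a, the actin-binding coronin, gave 423, 342.3 and 304.6 in lean and 741.7, 607.2 and 522.5 in obese tissue, a difference of 0.77 ± 0.18 (adjusted p = 0.0137 in limma). Its call was lost without obese array 1 or without lean array 3.

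Of the 2 leukocyte tetraspanins 1 passed the test. Cd53 gave 700.6, 667 and 754.5 in lean and 1250, 1431 and 1595 in obese tissue, a difference of 0.99 ± 0.21 (adjusted p = 0.00827 in limma). Cd37 gave 412.2, 432.4 and 422.3 in lean and 390.2, 555.4 and 709.2 in obese tissue, so that 1 obese array lay below all lean arrays, and its difference of 0.33 ± 0.22 was not called (adjusted p = 0.429 in limma). Whether the tetraspanins' changes differ from each other was not tested.

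Ptprc was read by 2 probe sets that gave different levels but the same direction. Probe set 1390798_at gave 417.2, 268.1 and 306 in lean and 461.2, 585.4 and 550.8 in obese tissue, a difference of 0.67 ± 0.19 (adjusted p = 0.046 in limma). This call was lost in 7 of 13 alternatives, among them the fit without lean array 2 or 3 or any 1 of the obese arrays. Probe set 1370603_a_at gave 197.8, 178.1 and 169.6 in lean and 327.9, 370.2 and 319.5 in obese tissue, a difference of 0.83 ± 0.29 that was not called (adjusted p = 0.0977 in limma).

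The second comparison set the mean of the 4 ligand groups against untreated obese adipose tissue. Here 10 of the 11 probe sets fell and none rose, while 11.6% of all 9519 probe sets were called lower. The median difference of the members was -0.86, against -0.05 for all probe sets, and on all 12 ligand arrays these 10 probe sets stayed below the lowest obese array. How many of all probe sets were separated in this way was not counted, so no weight is put on that number. Both comparisons use the 3 obese arrays, so the rise with obesity and the fall with the ligands are not independent of each other.

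Coro1a fell most, by 1.18 ± 0.14 on the log2(signal + 20) scale, to 0.4409 of its obese level (adjusted p = 1.3e-05 in limma). Its 12 ligand arrays ran from 187.7 to 402.8 with a median of 240.8, against 522.5 to 741.7 in the obese group. Ptprc changed by -1.09 ± 0.23 in probe set 1370603_a_at (adjusted p = 0.00231) and by -0.86 ± 0.15 in probe set 1390798_at (adjusted p = 0.000613), both in limma. The ligand arrays of the second probe set ran from 194.7 to 383.3, with a median of 287.4.

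Both tetraspanins fell as well. Cd37 fell by 1.03 ± 0.18 (adjusted p = 0.000406 in limma), and its ligand arrays ran from 140.3 to 354.4 with a median of 255.1, below the lowest obese array at 390.2. Cd53 fell by 0.97 ± 0.17 (adjusted p = 0.000428 in limma), and its ligand arrays had the widest relative span of the members, from 304.4 to 1166 with a median of 723.6.

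Of the receptors, Cd300c2 fell 1.999-fold (adjusted p = 1.42e-05 in limma), with a 95% interval of the log2 difference from -1.25 to -0.75, from 1876 to 2218 on the obese arrays to 583.5 to 1542 on the ligand arrays, with a median of 1100. The ITAM adapters fell by less: Tyrobp by 0.73 ± 0.12 (adjusted p = 0.000258 in limma) and Fcer1g by 0.65 ± 0.11 (adjusted p = 0.000251 in limma). Laptm5 fell by 0.71 ± 0.14 (adjusted p = 0.00144 in limma), with ligand arrays from 926.4 to 2130. Csf1r fell by 0.45 ± 0.12 (adjusted p = 0.0127 in limma), and this call was lost with arrays centred on their median and without obese array 2 or 3. Cd14 again stood apart, with a difference of -0.09 ± 0.12 (adjusted p = 0.627 in limma) and ligand arrays from 1162 to 2166 that span the obese ones. By ligand, the Cd14 arrays ran from 1333 to 1515 with troglitazone, all below the obese arrays at 1582 to 1934, and from 1820 to 2166 with rosiglitazone, which overlap them.

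The third comparison set the mean of the ligand groups against lean adipose tissue. Of the 11 probe sets, 7 were not called, for example Tyrobp at 0.01 (95% interval -0.23 to 0.26) and Cd53 at 0.01 (-0.34 to 0.36). Laptm5 stayed higher, by 0.48 ± 0.14 (adjusted p = 0.0124 in limma), where 14.4% of all probe sets were called higher. For 3 genes the ligand level was lower, where 21.1% of all probe sets were called lower: Cd37 at -0.70 ± 0.18 (adjusted p = 0.00462), Coro1a at -0.41 ± 0.14 (adjusted p = 0.0307) and Cd14 at -0.40 ± 0.12 (adjusted p = 0.0124), all in limma. For Cd37 all 12 ligand arrays, at 140.3 to 354.4, lay below the lean arrays at 412.2 to 432.4. For the other 3 the groups overlapped, and leaving out lean array 2 removed each of their calls, so that 1 call was left without it.

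**Figure D2:**
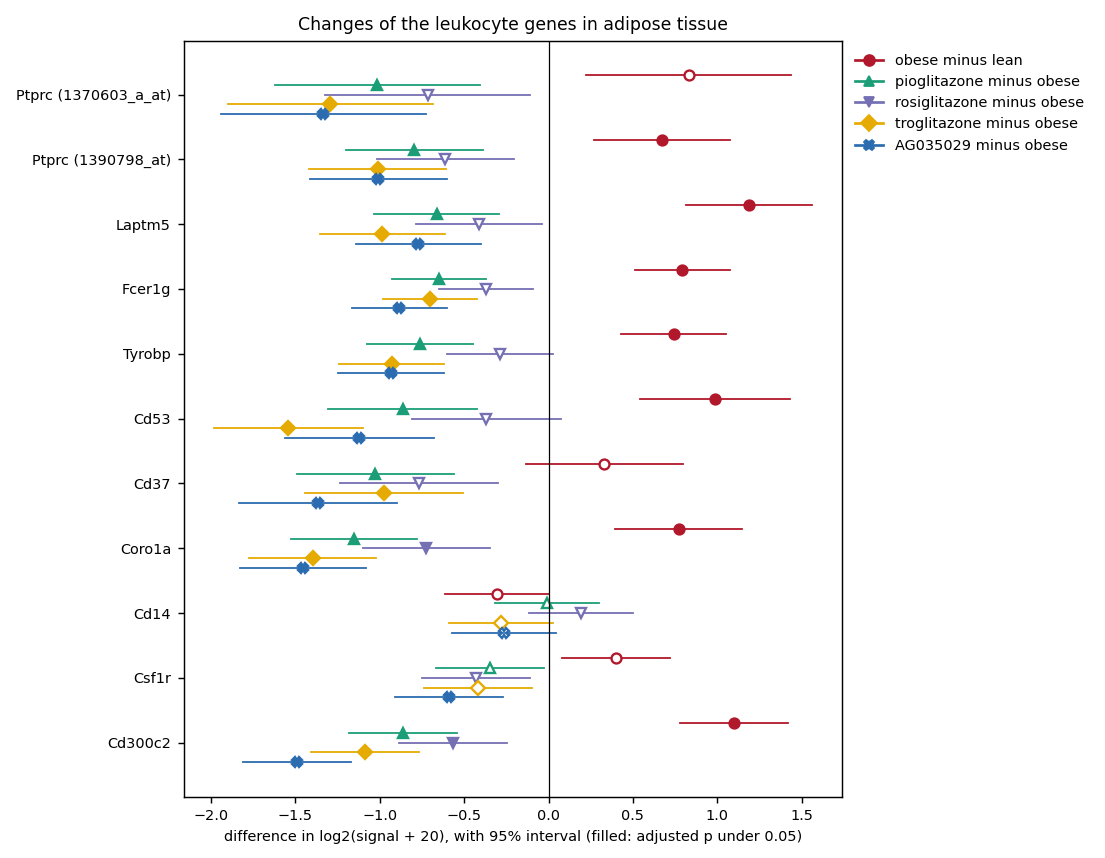
Difference in log2(signal + 20) (horizontal axis) of each leukocyte probe set in adipose tissue between untreated obese and lean rats and between each ligand and untreated obese rats; bars are 95% intervals and filled symbols mark an adjusted p under 0.05 in limma. The ligand values lie left of 0 for all members but Cd14, and rosiglitazone's symbols (downward triangles) are nearest to 0 for most members and filled for Coro1a and Cd300c2 alone.

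Taken singly, the ligands differed in how many member probe sets passed the test. Pioglitazone lowered 9 (7.56% of all probe sets were lower), troglitazone 9 (9.09% of all), AG035029 10 (8.43% of all) and rosiglitazone 2 (2.69% of all). The median difference of the members was -0.79 with pioglitazone, -0.98 with troglitazone, -1.01 with AG035029 and -0.43 with rosiglitazone. Dose and duration are not given, so these values are set side by side as the study arranged them, and all 4 comparisons share the obese arrays. Without pioglitazone array 1, 5 members passed with that ligand.

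With rosiglitazone, Coro1a fell by 0.72 ± 0.18 (adjusted p = 0.0212 in limma) and Cd300c2 by 0.56 ± 0.15 (adjusted p = 0.0359 in limma), and the count was 0 to 1 when any single array of either group was left out. Cd37 gave a difference of -0.77 ± 0.22 (adjusted p = 0.0511 in limma), just outside the threshold. For 10 of the 11 probe sets the 3 rosiglitazone arrays lay below the 3 obese arrays, with Cd14 the exception. All of these use the same obese arrays, and the share of all probe sets so separated was not counted. Tyrobp, which was not called there, gave 837.7, 764.9 and 737.7 with rosiglitazone against 870.4, 991.3 and 1006 in the obese group.

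AG035029 gave the lowest mean signal of the 6 groups for 8 of the 11 probe sets, all but those of Laptm5, Cd53 and Cd14. On the log scale of the tests, Ptprc probe set 1390798_at was lower with troglitazone (8.0915) than with AG035029 (8.0961). For Tyrobp these means were 8.9982 and 8.9952. How many of all probe sets were lowest with AG035029 was not counted. No ligand pair was called for the members (below), so no ranking of ligands is drawn from this count. Cd300c2 gave 583.5, 834.2 and 775.5, a difference from obese of -1.49 ± 0.15 (adjusted p = 5.57e-06 in limma), and its mean of 731.1 was below the lean mean of 958.1. Coro1a gave 196.8, 226.1 and 216.1, a difference of -1.45 ± 0.18 (adjusted p = 3.66e-05 in limma). Troglitazone gave the largest fall of Cd53, which was at 750.4, 304.4 and 463, a difference of -1.54 ± 0.21 (adjusted p = 7.42e-05 in limma). The 3 troglitazone arrays of Cd53 were far apart.

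The differences between ligands were tested themselves, as 6 pairs for each of 11 probe sets. Of these 66 tests none was called after adjustment over all probe sets and pairs in limma, where 0.00875% of 57114 tests were, and 21 had an unadjusted p under 0.05. Of the 21, 8 were of rosiglitazone against AG035029 (846 of all 9519 probe sets) and 7 of rosiglitazone against troglitazone (917 of all). Each of the other pairs had 1 to 3 (554 to 747 of all). The lowest adjusted p values were those of pairs with rosiglitazone. Cd300c2 was higher with rosiglitazone than with AG035029 by 0.93 (95% interval 0.61 to 1.25, adjusted p = 0.0918 in limma), and all 11 probe sets were higher in that pair. The members share these arrays, and how many of all probe sets pointed that way was not counted, so no weight is put on the shared direction. Cd53 was higher with rosiglitazone than with troglitazone by 1.17 (95% interval 0.73 to 1.62, adjusted p = 0.177 in limma). The Cd53 pair was called without troglitazone array 1. The Cd300c2 pair was called without troglitazone array 3, and when each pair was adjusted on its own (adjusted p = 0.023 in limma), a setting chosen after seeing the data. Pioglitazone, rosiglitazone and troglitazone are thiazolidinediones with different side chains, and AG035029 is known here by its code name only. Between troglitazone and AG035029 the 95% interval held 0 for all members but Cd300c2 (0.40, from 0.08 to 0.72), and for Tyrobp it ran from -0.31 to 0.32 around a difference of 0.00. The median half-width of the intervals over all pairs was 0.37, so the missing calls do not make the ligands equal.

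Members also moved together from array to array within a group. After subtracting group means, the median correlation between member pairs over the 18 adipose arrays was 0.47 (45 pairs, from -0.42 to 0.86, 35 positive), against 0.10 in liver (31 positive) and 0.25 in muscle (35 positive). In liver Cd37 and Coro1a, and in muscle these and Ptprc, were too dim to pass the filter. Pairs of other genes were not read for comparison. The member pairs share arrays and RNA pools, so the values are descriptions. Laptm5 had the highest mean correlation with the other members (0.55), Tyrobp 0.51 and Fcer1g 0.48, while Cd300c2 had 0.12 and Cd14 -0.11. Some adipose arrays shifted for most genes: pioglitazone array 3 was above its group mean for 10 of 10 genes, troglitazone array 1 for 9 of 10 with a median of 0.28, and troglitazone array 2 was below for 8 of 10 with a median of -0.27. Such shifts were seen in muscle too, where untreated obese array 3 and lean array 3 were above their group means for 10 of 10 genes. How many of all probe sets lay above or below their group means on the same arrays was not counted. A shift of the whole array is therefore not told apart from a shift of these genes.

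**Figure D3:**
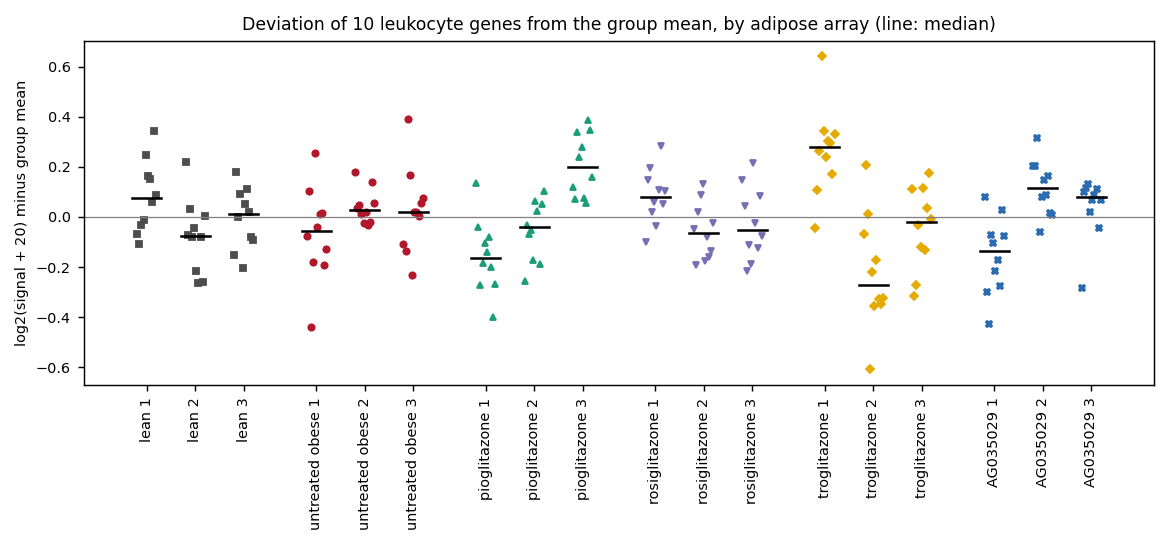
Deviation of each of the 10 leukocyte genes from its group mean (vertical axis, log2(signal + 20)) on each adipose array (horizontal axis), with the median as a line; Ptprc is shown by its brighter probe set. Troglitazone array 1 lies high and array 2 low, at medians of 0.28 and -0.27.

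The adipose pattern of the members was shared most closely by 8 other genes, ranked by Pearson correlation over the 18 adipose arrays with the mean of the members' standardised values. They were Cyba (r = 0.93), a subunit of the phagocyte NADPH oxidase, Bcl2a1 (0.93), a survival factor of the BCL2 family, Ccnb2 (0.93), a mitotic cyclin, Fxyd5 (0.93), a regulator of the sodium pump, Fermt3 (0.93), the kindlin of blood cells, Rassf4 (0.93), S100a4 (0.93), a calcium-binding protein, and Cotl1 (0.92), which binds actin. They were chosen for that pattern, so their differences are descriptions: the ligand mean minus obese was -1.74 for Cotl1, -1.53 for S100a4, -1.22 for Rassf4 and -0.73 for Cyba. Correlation within groups ran lower, for example 0.61 for Cyba and 0.38 for Cotl1.

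Markers of leukocyte types and of other cells were read from lists of genes, in the comparison of obese with lean and of the ligand mean with obese adipose tissue. Over all probe sets 3.16% were called higher and 2.86% lower with obesity, and 9.01% higher and 11.6% lower with the ligands, with medians of -0.02 and -0.05. The summed signal of 21 macrophage and monocyte markers was 35640 to 40410 in obese and 25170 to 29860 in lean adipose tissue, and 20980 to 34340 over the ligand groups, which did not overlap with the obese group. Of 19 tested, 4 rose with obesity and 6 fell with the ligands (medians 0.31 and -0.20), with Cd68 at 1.33 ± 0.16 and -0.85 ± 0.13, Lcp1 at -1.11 ± 0.12 with the ligands, and Clec4a3 at -0.88 ± 0.17 with the ligands. Against lean tissue, 4 of the 19 were higher with the ligand mean (14.4% of all probe sets) and 1 was lower (21.1% of all). Cd68 was among the higher, at 0.48 ± 0.13. Of 7 T cell and natural killer cell genes tested, none was called with obesity and 1 rose (Lat, 0.53 ± 0.11) and 1 fell (Cd4, -0.50 ± 0.16) with the ligands. No B cell gene and 1 neutrophil gene passed the filter, and of 4 mast cell genes Tpsab1 rose with the ligands, by 1.08 ± 0.14. The summed signal of 17 T cell and natural killer cell genes was 2536 to 2852 in obese, 2248 to 2899 in lean and 1972 to 3076 in ligand tissue, which overlap. That of 9 mast cell genes was lower in obese tissue, at 2577 to 2847, than in lean tissue, at 3422 to 4397, and 2378 to 4318 over the ligand groups. For 6 neutrophil genes it was 509.4 to 2891 in obese, 767.8 to 1255 in lean and 315.8 to 4721 in ligand tissue, and for 2 B cell genes 58.1 to 1164, 83.2 to 116.8 and 33.1 to 2145.

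Partners of the members in their pathways were read in the same way. Of 10 ITAM signalling genes tested, 3 rose with obesity and 5 fell with the ligands (medians 0.32 and -0.40), among them Syk, the kinase that binds phosphorylated ITAMs, at 1.05 ± 0.21 and -0.92 ± 0.17, Ptpn6, a phosphatase, at 0.53 ± 0.15 and -0.58 ± 0.12, and Fyn at -0.65 ± 0.10 with the ligands. Of 11 leukocyte actin and adhesion genes, 4 rose and 7 fell (medians 0.46 and -0.55), with Cotl1 at 1.59 ± 0.21 and -1.74 ± 0.17 and Lsp1 at -1.28 ± 0.21. Of 8 genes of CD14 and TLR4 signalling, none was called with obesity and 1, Nfkb1, fell with the ligands, by 0.48 ± 0.09 (medians -0.13 and -0.24). Of 4 genes of the CSF1 receptor axis, Irf8, a transcription factor of macrophages, rose by 1.17 ± 0.17 and fell by 0.96 ± 0.14 (medians of the 4 genes -0.20 and -0.13). Relatives of the members that are found in many cells were read as well. Of 13 tetraspanins 1 fell with obesity and 2 with the ligands (medians -0.03 and -0.16). Of 6 coronin and LAPTM relatives none was called with obesity and 2 fell with the ligands, Coro1c at -0.34 ± 0.09 and Laptm4b at -0.43 ± 0.14 (medians 0.00 and -0.28).

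Genes of cells other than leukocytes were also called in the same arrays. Of 8 adipocyte genes, 1 rose and 4 fell with obesity, and 3 rose and 1 fell with the ligands; Acvr1c, an activin receptor, and Pparg, which encodes the receptor of the ligands, gave -1.54 ± 0.21 and -1.07 ± 0.15 with obesity and stayed below lean with the ligands, at -1.36 ± 0.17 for Acvr1c (adjusted p = 8.98e-06 in limma) and with an adjusted p of 5.45e-06 for Pparg. Cfd, the adipocyte serine protease adipsin, gave -0.61 ± 0.13 with obesity and 0.62 ± 0.10 with the ligands. Of 10 fibroblast and matrix genes, none was called with obesity and 4 fell with the ligands, Col14a1 at -1.01 ± 0.11. Of 8 endothelial genes, 1 fell with obesity, and 1 rose and 2 fell with the ligands (median -0.00): Kdr, a receptor of vascular endothelial growth factor, at 0.95 ± 0.12, Emcn at -0.77 ± 0.15 and Cldn5, a tight junction protein, at -2.04 ± 0.12. The summed signal of the adipocyte genes was 40220 to 43680 in obese, 45110 to 55510 in lean and 43100 to 57890 in ligand tissue. That of 4 erythroid genes was 18870 to 21080 in obese, 22750 to 25390 in lean and 12230 to 29320 in ligand tissue, with all AG035029 arrays (12230 to 18580) below the obese ones. That of 9 hepatocyte genes was 1234 to 1597 in obese, 1994 to 3203 in lean and 3879 to 10330 in ligand tissue, and that of 10 muscle fibre genes 4042 to 5335, 3215 to 6298 and 6102 to 9048. Among the remaining lists, 1 of 4 hepatocyte genes tested (Alb) fell with obesity and rose with the ligands, 1 of 3 skeletal muscle genes (Myh1) rose with the ligands, 1 of 4 mesothelial genes (Wt1) fell with obesity, and none of 3 erythroid genes was called in these 2 comparisons (Slc4a1 rose with pioglitazone, at 0.89 ± 0.25, and Alas2 was lower with the ligand mean than in lean rats, with an adjusted p of 0.00362 in limma). Their part in the changes of the members was not tested.

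In liver and muscle the members gave no called change. The filter kept 8 of the 11 probe sets in liver, where probe set 1370603_a_at of Ptprc, Cd37 and Coro1a were too dim, and 7 in muscle, where probe set 1390798_at of Ptprc was too dim as well. In liver the calls in limma were 0 of 8 for obese against lean (0.672% of all probe sets, either direction), for the ligand mean against obese (0.494%) and against lean (3.18%), with 1, 2 and 1 members at an unadjusted p under 0.05. In muscle they were 0 of 7 in each (0.021%, 0.242% and 1.11% of all), with 0, 1 and 0 members at an unadjusted p under 0.05. Of all 9519 probe sets, 929, 1011 and 1459 had such a p in liver and 464, 677 and 1058 in muscle. Taking each ligand singly against obese, 0 of 32 member tests in liver and 0 of 28 in muscle were called (0.236% and 0.271% of all), 5 and 1 of them at an unadjusted p under 0.05. Per ligand, 662 to 948 of all 9519 probe sets had such a p in liver and 569 to 1017 in muscle. Of the differences between ligands, 0 of 48 tests in liver (0.00175% of all, 2 at an unadjusted p under 0.05) and 0 of 42 in muscle (0% of all, 5 at an unadjusted p under 0.05) were called. Per pair, 398 to 717 of all 9519 probe sets had such a p in liver and 675 to 940 in muscle.

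The spread was larger in these tissues, with a median residual SD of 0.43 in liver and 0.40 in muscle against 0.24 in adipose tissue. A change of the adipose size could therefore be missed more easily there. Of the liver comparisons with the untreated obese group, Cd300c2 came nearest to a call. It gave 641.1, 707.8 and 606.7 in obese liver and 196.1 to 550.4 over the 12 ligand arrays, a difference of -0.79 ± 0.24 (adjusted p = 0.158 in limma). All ligand arrays lay below the obese ones, and obese liver lay above lean liver, at 455.2, 555.3 and 394.8. Cd53 in liver was lower with the ligands than in lean rats, by -0.64 ± 0.21 (adjusted p = 0.112 in limma), and was called without lean liver array 1. In muscle the lowest adjusted p was that of Csf1r with troglitazone, at -0.65 ± 0.19 (adjusted p = 0.156 in limma). Cd14 in liver gave 0.48 ± 0.20 with the ligands (adjusted p = 0.388 in limma), with 1406 to 2038 in the obese and 1820 to 3328 in the ligand groups, which overlap.

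Whether adipose tissue differed from the other tissues was tested in 1 fit of all 54 arrays. The change with obesity was more positive in adipose tissue than in liver for 2 of 11 probe sets, where 0.677% of 11520 were called in either direction. They were Fcer1g, by 1.01 ± 0.24 (adjusted p = 0.0247 in limma), and Cd53, by 1.57 ± 0.37 (adjusted p = 0.0227 in limma). These differences take in a lower mean signal in obese than in lean liver as well as the rise in adipose tissue. For Cd53 the liver means were 417.5 in obese and 641.2 in lean rats, with overlapping arrays (294.6 to 525.4 and 428.8 to 771). For Fcer1g they were 1291 and 1528. Over the 8 members tested in liver the median difference with obesity was -0.21, against -0.01 for all probe sets, and none was called. Against muscle no member was called (0.148% of all), with 4 at an unadjusted p under 0.05 (889 of all 11520) and Fcer1g at an adjusted p of 0.135 in limma. The change with the ligands was called as more negative in adipose tissue for Fcer1g, by -0.90 ± 0.19 against liver (adjusted p = 0.00204 in limma; 4.43% of all called) and by -0.70 ± 0.19 against muscle (adjusted p = 0.031 in limma; 2.08% of all called). The other 10 probe sets pointed the same way in both ligand comparisons and were not called. Among them, Cd37, Coro1a and both probe sets of Ptprc missed the filter in muscle. All of these but the brighter Ptprc probe set missed it in liver as well. A fall from such low signals is hard to see, so their direction may only repeat the fall in adipose tissue. How many of all probe sets pointed this way was not counted, so no weight is put on the shared direction. The 11 probe sets and the 22 ligand tests of this fit include these dim members. Of the 22 ligand tests 2 were called. The count became 8 with a pseudocount of 80, 4 without liver AG035029 array 3 and 1 with arrays centred on their median. It therefore depends on these choices. Fcer1g showed the contrast on the arrays: obese liver gave 1389, 1290 and 1195 against 1745, 1162 and 1676 in lean liver, and obese muscle 1035, 771.5 and 1074 against 991.3, 1016 and 1040 in lean muscle. In both tissues the lean and obese arrays overlapped. Each of the obesity calls was lost in 7 of 25 alternatives, all of them fits without 1 array, among them obese adipose array 2 or 3 and lean adipose array 2 for both genes. The Fcer1g call against muscle was lost with arrays centred on their median and without any 1 of the obese adipose arrays or obese muscle array 2.

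**Figure D4:**
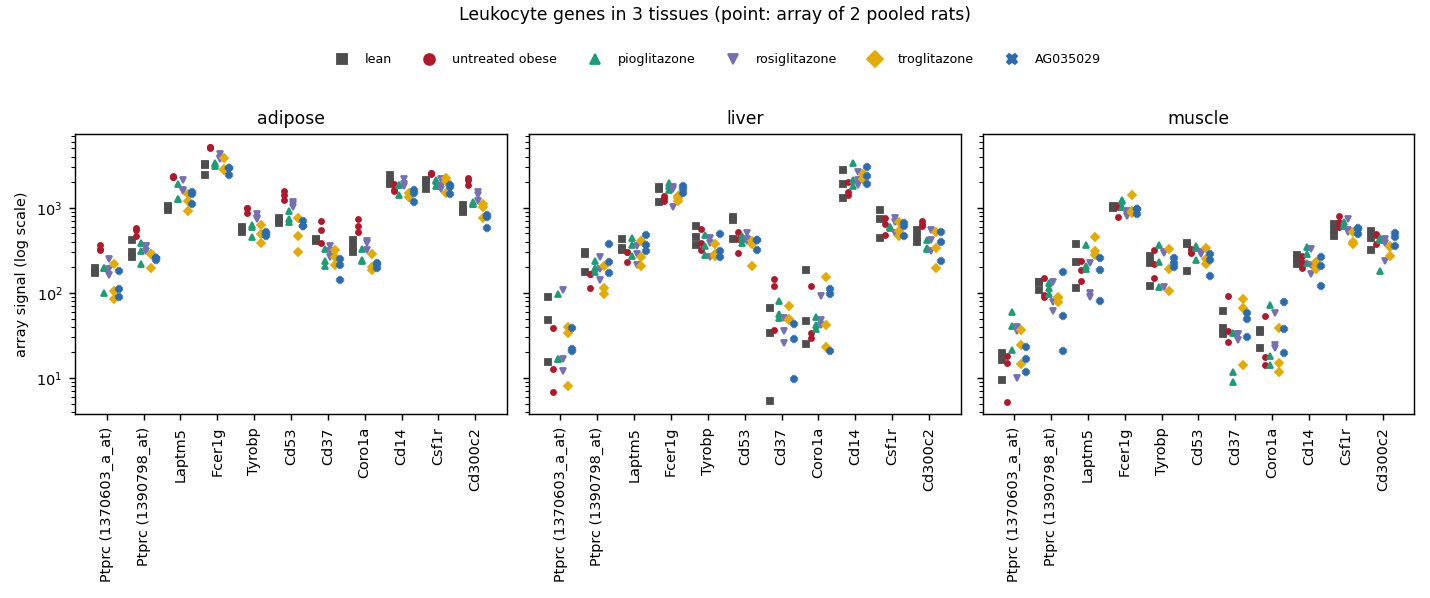
Array signal (vertical axis, log scale) of each leukocyte probe set (horizontal axis) in adipose tissue, liver and muscle, with 1 point per array and colours for the 6 groups. In liver and muscle the groups overlap for most members, and the lean Cd14 signal is similar in adipose tissue and liver (means 2127 and 1988) and lower in muscle (251.7).

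In lean rats most members gave their highest signal in adipose tissue. The fit of all tissues held every probe set that passed the filter in at least 1 tissue, so a member that passed in adipose tissue alone was likely to be higher there, and its call is not counted here. Of the 7 probe sets that also passed in muscle, 7 were higher in adipose tissue than in muscle, where 32.2% of all probe sets were. Of the 8 that also passed in liver, Laptm5, Fcer1g, Csf1r and Cd300c2 were higher in adipose tissue than in liver, where 32.1% of all were. Fcer1g, Tyrobp, Cd53 and Cd14, of the 7 that passed in both, were higher in liver than in muscle, where 25.4% of all were. These levels are relative to a common trimmed mean on each array. Fcer1g gave 2971 ± 453.5 (SD, n = 3) in lean adipose tissue, with 1528 ± 318.3 in liver and 1015 ± 24.1 in muscle; adipose minus liver was 0.96 ± 0.17 (adjusted p = 4.58e-06 in limma). Cd14 was ordered differently, with 2127 ± 300.1 in adipose tissue and 1988 ± 738.7 in liver, which did not differ beyond their spread (adjusted p = 0.6 in limma), and 251.7 ± 31.1 in muscle. Cd37, which passed in adipose tissue alone, gave 422.3 ± 10.1 in adipose tissue, against 35.33 ± 30.46 in liver and 44.4 ± 15.09 in muscle, of which the last pair did not differ beyond its spread (adjusted p = 0.467 in limma). Csf1r gave 1930 ± 258.6 in adipose tissue, then 703.7 ± 249.3 in liver and 553.7 ± 92.84 in muscle, where liver and muscle again did not differ beyond their spread (adjusted p = 0.229 in limma). Signals of different probe sets depend on their probes, so no order of genes is drawn from them.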

How the data were processed

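The deposited values are MAS5 signal intensities on a linear scale, 1 per probe set and array, made by the authors with MAS5 per the submitters' processing notes; the version is not given in the sources used here. Each array was scaled to 1 trimmed mean, as tested on the values (2% trimmed at each end). MAS5 signals carry no counts, so depth cannot be stated, and the number of arrays limits the precision. Of 15866 probe sets, 12783 have 1 gene symbol in the platform annotation, 312 several and 2771 none; none of the members' probe sets has several.

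Per tissue, log2(signal + 20) was fitted over all 18 arrays with limma 3.58.1 in R 4.3.3 (eBayes with a mean trend), after dropping probe sets whose mean lay under the 40th percentile, which left 9519. The filter is on the mean over all groups. Tissues were compared in 1 fit of 54 arrays over 11520 probe sets. P-values were Benjamini-Hochberg adjusted over all probe sets, and pooled over the 6 pairs for differences between ligands. Log2 differences on this scale understate changes of dim genes. The fit was tested on simulated data.

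The members and gene lists were chosen with earlier results of these data known. Named beside the members are up to 3 called genes per list and comparison by smallest adjusted p, and the 8 genes of highest correlation. P-values measure the spread between arrays of pooled RNA; whether the pools came from separate rats is not stated. Same-numbered arrays did not deviate together: the mean correlation of deviations was 0.02 for adipose tissue, 0.00 for liver and 0.01 for muscle over 45 pairs each, so the numbers were not used for pairing. Alternatives changed the pseudocount (5, 80), the filter, the normalization, the arrays in the fit and the replicate number as a block, and left out each array in turn.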

Additional observations from a re-analysis of the deposited data

Results flagged for a closer look

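Differences between tissues under the same contrast stood out for Fcer1g and Cd53, by the test of the difference itself in the fit of all arrays. The obesity change was more positive in adipose tissue than in liver by 1.57 ± 0.37 for Cd53 and by 1.01 ± 0.24 for Fcer1g. In liver the mean signal of both genes was lower in obese than in lean rats. The ligand change of Fcer1g was more negative in adipose tissue than in liver by -0.90 ± 0.19 and than in muscle by -0.70 ± 0.19. Of these, the ligand difference of Fcer1g against liver passed the threshold under all 52 alternatives run for it.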

How the results depend on the processing

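No value of a called member changed sign under any alternative run. Counts below are of called member tests. The filter at the 60th percentile, which tests fewer members, gave 6 for the ligand mean against obese adipose tissue (10 otherwise), 2 against lean (4), 5 for pioglitazone (9), 1 for rosiglitazone (2), 5 for troglitazone (9), 6 for AG035029 (10) and 15 lean tissue levels (23). The counts of lean tissue levels take every member in the fit of all tissues. The 23 include calls not counted above, of probe sets that missed the filter in a tissue compared. Rosiglitazone's count was 1 with no filter, 1 with median centring, 1 with the replicate number as a block, 0 with only the groups compared in the fit, and 0 to 1 with single arrays left out; the cause was not tested. The block also removed the Ptprc call (probe set 1390798_at) with obesity, and moved no count but rosiglitazone's over 1.5 times. Median centring gave 2 for the ligand mean against lean and 1 for the tissue difference of the ligand change (2), for which a pseudocount of 80 gave 8. Leaving out single arrays gave 1 to 4 for the ligand mean against lean (1 without lean array 2), 5 to 9 for pioglitazone, 0 to 1 for differences between ligands (1 also with each pair adjusted on its own), 0 to 1 for the ligand mean against lean in liver, 0 to 2 for the tissue difference of the obesity change and 1 to 4 for that of the ligand change (4 without liver AG035029 array 3). Obese against lean gave 5 to 7 calls and the ligand mean against obese 9 to 10. With 3 arrays a group and larger spread in liver and muscle, smaller changes there were not detectable.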

Other observations

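In the same adipose arrays, transcripts of other tissues changed as well. Alb, which encodes serum albumin of hepatocytes, differed by -2.16 ± 0.37 between obese and lean rats and by 4.43 ± 0.29 between the ligand mean and obese rats (adjusted p = 0.00151 and 1.87e-08 in limma). Myh1, a fast myosin heavy chain of muscle, differed by 0.81 ± 0.15 with the ligands (adjusted p = 0.000831 in limma).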
